A study of Mus musculus with 19 samples.

Results

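The Dlk1-Dio3 cluster is a stretch of mouse chromosome 12 in which the 2 parental copies are used differently. As background, the paternal copy gives the protein-coding genes Dlk1, Rtl1 and Dio3, and the maternal copy gives the long non-coding RNAs Meg3, Rian and Mirg, whose transcripts carry snoRNAs and microRNAs. A methylated control region between Dlk1 and Meg3 sets this pattern, and silencing of the maternal transcripts is a known defect of some mouse pluripotent stem cell lines. All 6 of these genes were looked up by symbol in tables of 22756 gene rows, and each was found in 1 row. The reads do not tell the parental copies apart.

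The 19 RNA libraries come from mouse embryonic stem (ES) cells with Rex1 GFPd2, a short-lived green fluorescent protein (GFP) reporter of Rex1 (Zfp42), a gene of naive ES cells. AICAR is a nucleoside that cells turn into a mimic of AMP, and it activates the energy-sensing kinase AMPK. The 8 colony lines (numbered 1, 3, 4, 5, 6, 7, 9 and 10) were grown from picked GFP-positive colonies of AICAR-treated cultures, and the 2 sorted lines from GFP-positive cells collected from such cultures by sorting. Both kinds of line were kept in LIF with inhibitors of MEK and GSK3. The AICAR-treated cultures themselves gave 3 GFP-positive libraries, 1 GFP-negative library and 1 library of the whole culture at day 15. Their cells had been differentiated in serum medium for 2 days, sorted as negative for GFP and for the stem cell antigen SSEA1, and put back into that medium with AICAR. The other groups hold 1 library each of undifferentiated cells in LIF with the inhibitors, of cells differentiated for 2 days, of the sorted SSEA1-negative GFP-negative cells of day 2, and of such cells kept to day 15 without AICAR. All libraries come from this 1 reporter line, and no label tells whether the libraries of a group were grown apart. The p-values therefore cover the spread between these samples alone, which may be technical. In the AICAR fractions and in 1 of the day-2 libraries the sorting field goes against the title, and groups follow the title.

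The number of reads in genes lay between 5771671 and 8262357 in 17 libraries of a first sequencing project. AICAR GFP-positive libraries 1 and 2 belong to a second project and held 12751260 and 14233421 reads. Library 3 of that group, from the first project, also stands apart in its markers. The summed level of 7 mesenchyme markers was 217 CPM (counts scaled to a common total of reads in genes) in library 3, against 16.2 CPM in library 1 and 24.5 CPM in library 2. That of 6 endoderm markers was 866 CPM in library 3, against 121 and 122 CPM. The 21 imprinted rows of other clusters summed to 3084 CPM in library 3, against 1217 and 1395 CPM. The part of these differences in the results was not tested, and the counts of members and of list rows called are given with and without this library, the list counts without it having been added after seeing the data. Without it, libraries 1 and 2 remain, and every library they are set against is of the first project, so that in each such comparison the sequencing project and the group cannot be told apart. Against a single library such a fit rests on 2 libraries against 1, and the lone library is assumed to vary like the other 2. In such bulk samples fewer cells of a type and less RNA per cell cannot be told apart.

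The rows do not cover the same kinds of transcript. Dlk1, Rian and Dio3 each stand alone. The Rtl1 row is joined with 6430411K18Rik, a transcript of the opposite strand, and with 7 microRNA genes. The library kit keeps strand, but whether the counting used it is not given in the sources used here, so Rtl1 and its antisense partner cannot be told apart. The Meg3 row is joined with 3 microRNA genes and the Mirg row with Mir369, Mir410 and Mir412. The mature microRNAs of the Mirg row are shown because these RNAs are products of the transcript whose reads were counted; the mRNA libraries do not measure them. The sequences are RefSeq's (build GRCm38.p6), with the seed, bases 2 to 8, in capitals.
mmu-miR-369-5p: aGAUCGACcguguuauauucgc
mmu-miR-369-3p: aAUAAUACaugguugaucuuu
mmu-miR-410-5p: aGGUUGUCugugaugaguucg
mmu-miR-410-3p: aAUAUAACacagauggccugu
mmu-miR-412-5p: uGGUCGACcagcuggaaaguaau
mmu-miR-412-3p: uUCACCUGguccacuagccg
No seed was shared among the 22 mature microRNAs found for 12 of the 13 microRNA names in the member rows.

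Starts of Meg3, Rian and Dlk1 are shown because the RNAs that begin there behaved differently in the results: Meg3 and Rian varied together among lines, and Dlk1 moved apart from both at day 15. Each window runs from 250 bases before to 50 bases after a RefSeq start in GRCm38.p6, which is not the mm9 build of the counts, and all are on the plus strand. A match to any of 4 searched motifs is in capitals.
Meg3, chr12:109540746-109541045: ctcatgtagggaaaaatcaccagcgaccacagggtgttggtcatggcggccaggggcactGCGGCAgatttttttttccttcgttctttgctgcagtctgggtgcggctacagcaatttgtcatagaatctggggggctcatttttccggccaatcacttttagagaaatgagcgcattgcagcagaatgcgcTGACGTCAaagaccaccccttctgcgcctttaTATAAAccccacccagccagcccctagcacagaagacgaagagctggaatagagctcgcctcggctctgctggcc
Rian, chr12:109603695-109603994: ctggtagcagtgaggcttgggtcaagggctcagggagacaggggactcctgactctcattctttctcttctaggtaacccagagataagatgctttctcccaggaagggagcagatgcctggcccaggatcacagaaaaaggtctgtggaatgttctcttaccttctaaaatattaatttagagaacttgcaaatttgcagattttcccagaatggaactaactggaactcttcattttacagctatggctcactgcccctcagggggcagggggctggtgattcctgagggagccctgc
Dlk1, chr12:109452573-109452872: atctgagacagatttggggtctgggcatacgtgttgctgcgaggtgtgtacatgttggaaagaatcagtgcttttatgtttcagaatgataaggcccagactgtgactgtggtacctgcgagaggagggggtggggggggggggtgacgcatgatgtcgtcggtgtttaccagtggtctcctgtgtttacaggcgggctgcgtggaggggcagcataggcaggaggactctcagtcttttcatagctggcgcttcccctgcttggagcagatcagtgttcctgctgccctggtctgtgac
The motifs were the cyclic AMP response element TGACGTCA, the GC box GGGCGG and TGCCGC, the core of the site read by the imprint-keeping factor ZFP57, each on both strands, and the TATA box TATAAA on the transcribed strand. The Meg3 window shown held TGACGTCA 57 bases before the start, TATAAA 25 bases before it, and TGCCGC on the opposite strand 190 bases before it. Of 32851 RefSeq windows of this length, 1.79% held TGACGTCA, 8.32% TATAAA, 35.7% GGGCGG and 11.6% TGCCGC. None of these letters stood in the Rian and Dlk1 windows. The Meg3 window shown held 13 CpG dinucleotides, the Rian window 0 and the Dlk1 window 9, and the median over all windows was 7. RefSeq has a second Meg3 start whose window, chr12:109545148-109545447, is not shown. It held 1 CpG and none of the 4 motifs, so the contrast with Rian and Dlk1 depends on the start chosen.

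The members differed widely in level. Set side by side as the authors' RPKM, which scales reads by exon length, the undifferentiated library held 68.1 RPKM of Rian, 50.0 of Meg3, 12.6 of Mirg, 1.11 of Dlk1, 0.828 of Dio3 and 0.406 of Rtl1. The untreated day-15 library held 735 RPKM of Dlk1, 648 of Meg3, 354 of Rian, 39.5 of Mirg, 3.51 of Rtl1 and 3.11 of Dio3. Among these 6 genes, Rian led in the undifferentiated library and Dlk1 in the day-15 library. The scaling of a row was not the same in every library. For Dlk1, 8 reads gave 1.11 RPKM in the undifferentiated library (1.17 CPM) and 0.262 RPKM in colony line 4 (1.18 CPM). The order of genes with near RPKM values may depend on that scaling. Below, levels of a single gene are compared between samples in CPM.

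**Figure D1:**
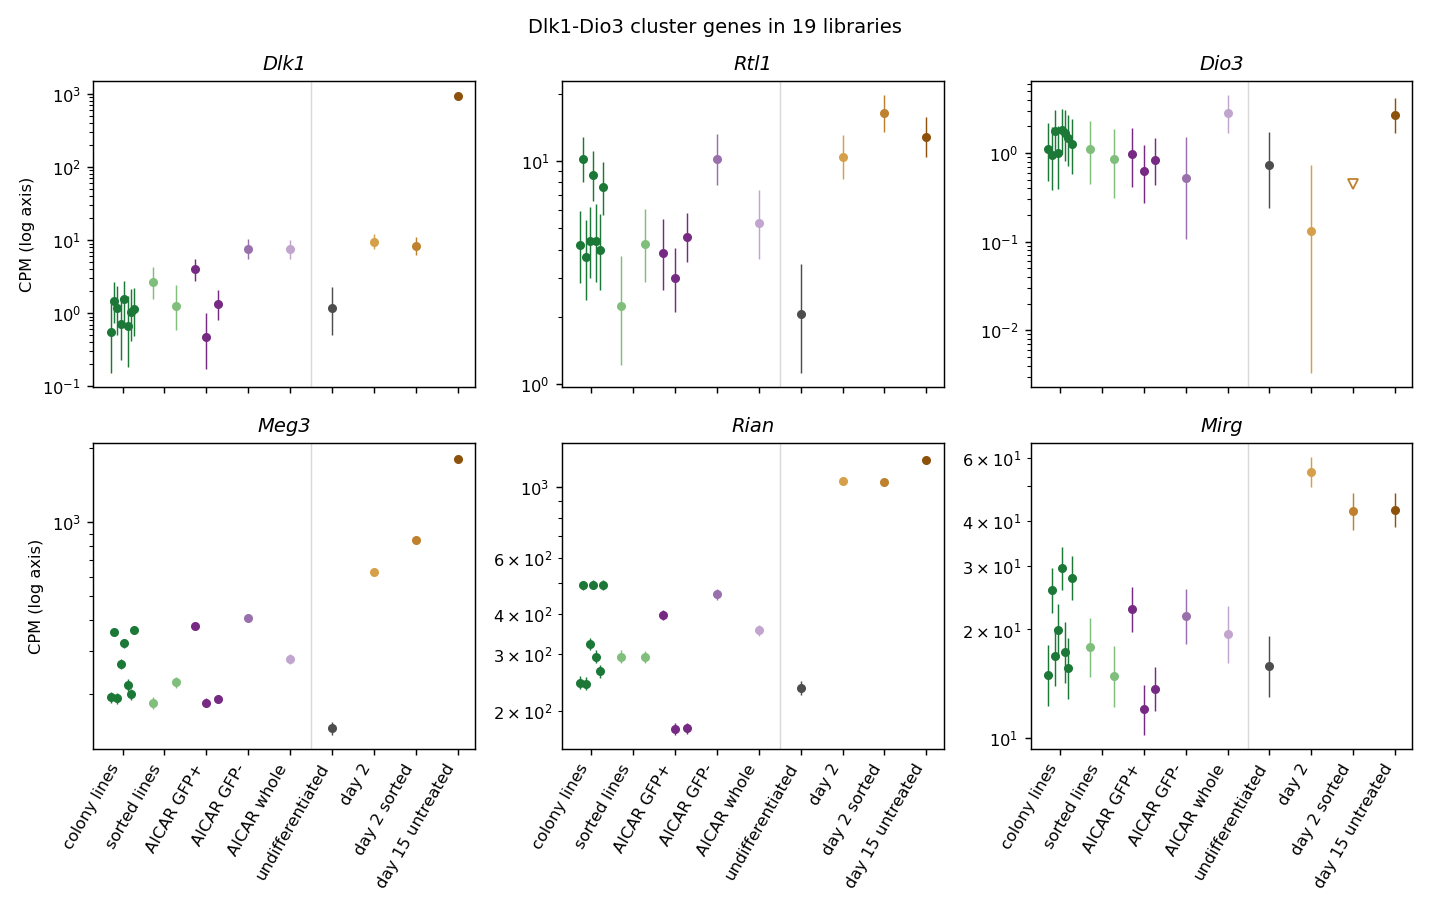
Level of each gene in all 19 libraries, in CPM on a log axis with its own range per gene; points are libraries, bars are exact 95% Poisson intervals and the open triangle is the limit of 3 reads that a count of 0 allows. The grey line separates AICAR-treated cultures and the lines grown from them (left) from the differentiation series, which runs from undifferentiated cells to day 15; the Dlk1 point at 951 CPM lies far above its 18 other points.

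The differentiation series was examined first, since it sets the range of each gene. In the order undifferentiated, day 2, day-2 sorted and day 15, Meg3 was at 145, 626, 849 and 1815 CPM. Rian was at 235, 1044, 1030 and 1213 CPM. Mirg was at 15.9, 54.9, 42.6 and 43.0 CPM. The 3 non-coding RNAs were thus lowest in the undifferentiated library, and Mirg was highest at day 2 and Meg3 and Rian at day 15. The Rtl1 row, named for a retrotransposon-derived gene needed in the placenta, was at 2.06, 10.5, 16.3 and 12.8 CPM. Dlk1, a membrane protein related to the Notch ligands, was at 1.17, 9.54, 8.39 and 951 CPM, which are 8, 73, 56 and 7334 reads. Dio3, the enzyme that inactivates thyroid hormone, had 5, 1, 0 and 21 reads. Its 0 reads in the day-2 sorted library allow up to 0.450 CPM.

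At day 2, 5 of the 6 genes were more than 2-fold higher than in undifferentiated cells. The ratios, after scaling by TMM, were 6.44 for Dlk1, 4.37 for Rtl1, 4.19 for Rian, 4.07 for Meg3 and 3.24 for Mirg. Among rows with at least 50 reads in 1 of these libraries, 18.3% differed by more than 2-fold, 9.21% upward and 9.06% downward. In the day-2 sorted cells the ratios were 6.61 for Rtl1, 5.54 for Dlk1, 5.42 for Meg3, 4.06 for Rian and 2.47 for Mirg, where 19.5% of rows differed by more than 2-fold, 9.7% upward and 9.76% downward. Each comparison sets 1 library against 1 and has no replicate check. The same 2 libraries had epiblast markers summing to 241 CPM at day 2 and 223 CPM in the sorted cells, against 2.94 CPM in undifferentiated cells. The 6 naive stem cell markers summed to 113 and 95.3 CPM, against 1683 CPM.

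Between day 15 and the day-2 sorted cells the cluster did not move as 1 unit. Dlk1 was 96.8-fold higher at day 15. Meg3 was 1.88-fold higher, and the ratios of Rian, Mirg and Rtl1 were 1.04, 0.891 and 0.697. Dio3 had 21 reads at day 15 and 0 in the day-2 sorted cells. Among all rows with enough reads, 50.1% differed by more than 2-fold, 28.2% upward and 21.8% downward. The ratio of Rian reads to Meg3 reads was 1.62 in the undifferentiated library, 1.67 at day 2, 1.21 after the day-2 sort and 0.668 at day 15. Day 15 had the lowest of these 4 ratios and of all 19 libraries. Mesenchyme markers summed to 36250 CPM at day 15, against 41.7 CPM in the day-2 sorted cells, and all 7 of them had reads at day 15.

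The whole AICAR culture and the AICAR GFP-negative fraction, 1 library each, were set against untreated day-15 cells. In the whole culture Dlk1 was at 7.49 CPM, Meg3 at 278 CPM, Rian at 356 CPM, Mirg at 19.4 CPM and Rtl1 at 5.26 CPM, all more than 2-fold lower than in untreated day-15 cells. The ratios to untreated cells were 0.00789 for Dlk1, 0.148 for Meg3, 0.284 for Rian, 0.408 for Rtl1 and 0.439 for Mirg, where 27.2% of rows differed by more than 2-fold, 9.97% upward and 17.2% downward. Dio3 had 18 reads in the whole culture and 21 in untreated cells, a ratio of 1.01. In the GFP-negative fraction Dlk1 was at 7.62 CPM, a ratio of 0.0083 to untreated cells. Meg3 was at 408 CPM and Rian at 461 CPM, ratios of 0.224 and 0.379, where 32.7% of rows differed by more than 2-fold, 11.3% upward and 21.4% downward. Mirg and Rtl1 were within 2-fold, with ratios of 0.509 and 0.798. Dio3 had 3 reads in the GFP-negative fraction and 21 in untreated cells, a ratio of 0.270. The counting intervals of Dlk1 in both AICAR libraries overlapped those of the day-2 libraries. Mesenchyme markers summed to 8323 CPM in the whole culture and 827 CPM in the GFP-negative fraction, against 36250 CPM in untreated day-15 cells. In the AICAR GFP-positive libraries they summed to between 16.2 and 217 CPM. The whole culture was thus above the libraries of both fractions, a level that no mix of those libraries gives.

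The GFP-positive fraction of the AICAR culture was compared with untreated day-15 cells in the same way but with 3 libraries. Dlk1 was at 0.471, 1.33 and 3.99 CPM in AICAR GFP-positive libraries 1, 2 and 3, against 951 CPM in untreated day-15 cells. Meg3 was at 185, 191 and 378 CPM, against 1815 CPM. Rian was at 175, 176 and 398 CPM, against 1213 CPM, and Mirg at 11.999, 13.7 and 22.8 CPM, against 43.0 CPM. The Rtl1 row was at 2.98, 4.57 and 3.87 CPM, against 12.8 CPM. For these 5 genes all 3 AICAR GFP-positive libraries were below the day-15 library, as they were for Dio3. Dio3 was at 0.627, 0.843 and 0.968 CPM, against 2.72 CPM. How many of all rows separate in this way was not counted.

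The 5 genes other than Dio3 passed the test. By edgeR's quasi-likelihood test with Benjamini-Hochberg adjustment over all rows, Dlk1 fell by 8.99 on the log2 scale (SE 0.79, adjusted p = 0.00322). Meg3 fell by 2.78 (SE 0.40, adjusted p = 0.00742), Rian by 2.21 (SE 0.47, adjusted p = 0.0188), Rtl1 by 1.67 (SE 0.41, adjusted p = 0.0275) and Mirg by 1.35 (SE 0.37, adjusted p = 0.0383). Dio3 had 8, 12 and 8 reads in AICAR GFP-positive cells, against 21 reads in untreated cells, and was not called (log2 fold change -1.66, adjusted p = 0.0866). Of all rows tested, 46.3% were called, 23.1% higher and 23.2% lower. The single day-15 library is assumed to vary like the GFP-positive ones. For the fits without library 1 or without library 2, which follow, no share of all rows called is given. Without GFP-positive library 1, 3 genes stayed called (Dlk1, Meg3 and Rian), and without library 2 only Dlk1 and Meg3 did. Without library 3 all 5 stayed called, with log2 fold changes of -9.91 for Dlk1, -3.19 for Meg3, -2.71 for Rian, -1.68 for Rtl1 and -1.66 for Mirg, beside 63.3% of all rows called.

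Lists around the members' roles were counted in the same comparison, to be read against the 46.3% of all rows called, 23.1% higher and 23.2% lower. Of 15 rows of the Notch pathway, in which Dlk1 is a non-canonical ligand, 13 were tested, 8 were lower in AICAR GFP-positive cells and 1 was higher (median log2 fold change -1.86, against -0.03 over all rows). The ligand Jag1 fell by 2.74, and the receptors Notch3 and Notch2 fell by 1.86 and 1.29. Of 12 thyroid hormone rows, the pathway Dio3 acts in, 10 were tested, 4 were lower and 1 was higher, which is near that share. The receptor Thra fell by 3.58 and the partner receptor Rxra fell by 1.30. Of 21 rows of imprinted genes from other clusters, 16 were lower and 1 was higher (median -3.03). Ndn fell by 2.79, Zim1 by 5.02 and Mest by 2.46. Of 18 flanking rows of chromosome 12 that lie outside the cluster, 17 were tested, 4 were higher and 3 were lower, also near it, among the lower ones Begain, the neighbour of Dlk1, which fell by 3.31. Of 18 imprint and DNA methylation factors, 15 were higher and 1 was lower, with Tet1, a 5-methylcytosine oxidase, up by 4.72, Jarid2 up by 3.22 and Uhrf1, which recruits the maintenance methylase, up by 1.89. Without library 3, 63.3% of all rows were called, 30.2% higher and 33% lower. There 10 Notch rows were lower and 1 higher, 5 thyroid rows lower and 1 higher, 18 other imprinted rows lower and 1 higher, 5 flanking rows higher and 3 lower, and 15 of the factors higher and 1 lower. In these libraries 6 of 7 mesenchyme markers and 6 of 6 muscle markers were also called lower (7 and 6 without library 3), and the part of a changed cell makeup in the members' values was not tested.

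**Figure D2:**
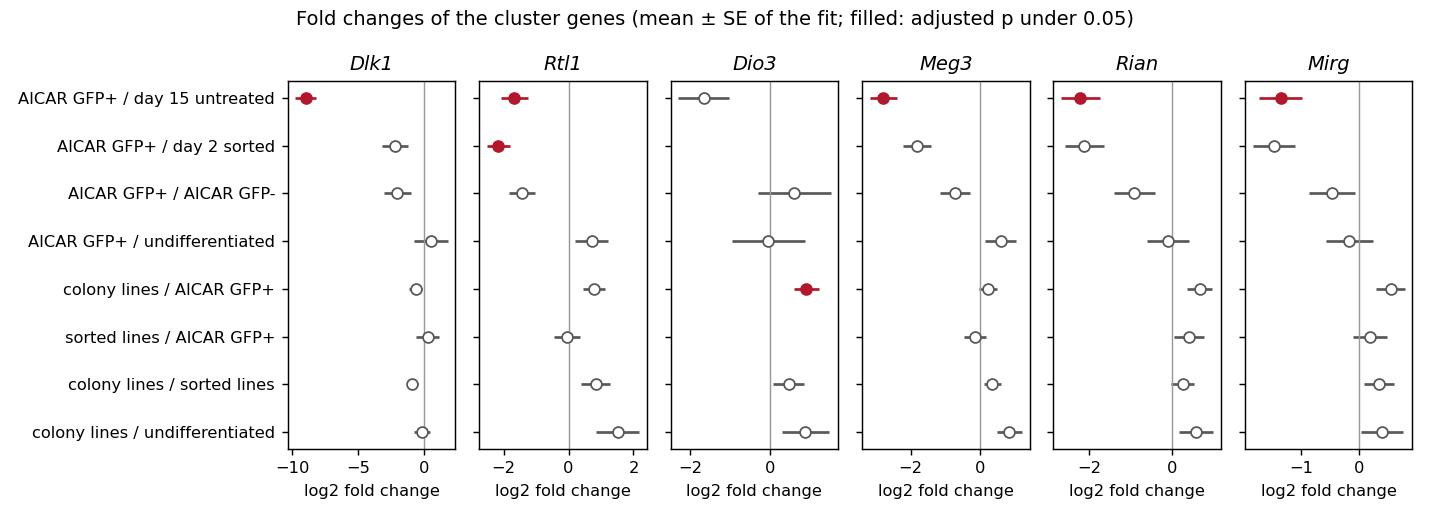
Log2 fold change of each gene in the 8 tested comparisons, first-named over second-named group as listed at the left, with the standard error of the edgeR fit; red filled points have an adjusted p under 0.05, and each gene has its own axis. Dio3 is not shown against the day-2 sorted cells, which had 0 reads, nor between sorted lines and AICAR GFP-positive cells, where it was not tested. Red points lie left of 0 for 5 genes against day 15 and for Rtl1 against the day-2 sorted cells, and right of 0 for Dio3 in colony lines.

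Against the day-2 sorted cells, from which the AICAR culture was started, the Rtl1 row was at 2.98, 4.57 and 3.87 CPM in AICAR GFP-positive libraries 1, 2 and 3, against 16.3 CPM. It fell by 2.16 on the log2 scale (SE 0.35, edgeR adjusted p = 0.0384), the only member called, beside 5.78% of all rows, 3.18% higher and 2.6% lower. Meg3, Rian and Mirg had log2 fold changes of -1.83, -2.12 and -1.47, with all 3 libraries below the day-2 value and adjusted p of 0.0644, 0.0639 and 0.0802. Dlk1 had a log2 fold change of -2.23 (adjusted p = 0.219). The 3 libraries also lay below the day-2 value in Rtl1 and Dlk1. In Dio3 they lay above it, with 8, 12 and 8 reads against 0, and Dio3 was not called. How many of all rows separate in this way was not counted. The call of Rtl1 was lost without library 1 or library 2. Without library 3, 5 members were called lower, beside 30.2% of all rows called, and DESeq2, an alternative count test, called 3 lower with all libraries (Rtl1, Rian and Mirg). Of the 10 Notch rows tested, 5 were lower and 2 higher, where the ligand Dll1 fell by 2.68, Notch3 fell by 2.36 and Notch4 was up by 4.57. Of the 18 imprint and DNA methylation factors, 4 were higher and 1 lower: Zfp57, which protects methylated imprints, was up by 3.33, Tet2 was up by 4.53, and the methylase Dnmt3b fell by 2.48. Without library 3, 5 Notch rows were lower and 3 higher, and 8 of the factors were higher and 3 lower, where 15.3% of all rows were higher and 14.9% lower.

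Against AICAR GFP-negative cells, which came from the same treatment, Rtl1 was at 2.98, 4.57 and 3.87 CPM in AICAR GFP-positive cells and 10.2 CPM in GFP-negative cells. Rian was at 175, 176 and 398 CPM, against 461 CPM. Of the 6 members, edgeR called 0, as it did of all rows (0.0%, also in each direction), DESeq2 called 0, and 1 had an unadjusted p under 0.05. That member was Rtl1 (log2 fold change -1.44, SE 0.40, edgeR adjusted p = 0.165). The GFP-positive values of Meg3 split around library 3: 185 and 191 CPM in libraries 1 and 2 and 378 CPM in library 3, against 408 CPM in GFP-negative cells. Without library 3, 5 members were called lower, beside 28.6% of all rows called, among them Rian at a log2 fold change of -1.40 (adjusted p = 3.58e-05) and Meg3 at -1.13 (adjusted p = 0.000141).

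Against undifferentiated cells, Meg3 was at 185, 191 and 378 CPM in AICAR GFP-positive cells and 145 CPM in undifferentiated cells, so all 3 were above. Rian was at 175, 176 and 398 CPM in AICAR GFP-positive cells, on both sides of the 235 CPM of undifferentiated cells. Of the 6 members edgeR called 0, DESeq2 called 0 and 0 had an unadjusted p under 0.05, beside 5.05% of all rows called, 2.43% higher and 2.62% lower. The log2 fold changes ran from -0.16 for Mirg to 0.71 for Rtl1. Without library 3, Rian was called lower, at -0.60 (adjusted p = 0.00668), beside 30.8% of all rows called. Of the 18 imprint and DNA methylation factors, 4 were higher and 1 lower, with Tet1 up by 1.97, the methylase Dnmt3a up by 2.15 and Zfp445, another imprint-protecting zinc finger protein, up by 1.26. Without library 3, 9 of them were higher and 5 lower, where 15.1% of all rows were higher and 15.7% lower.

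The colony lines were set against the AICAR GFP-positive cells to ask how the genes stand once such cells are kept as lines. Dio3 had 7 to 13 reads per colony line and 8 to 12 per AICAR GFP-positive library, a mean of 1.39 ± 0.355 CPM in colony lines and 0.813 ± 0.172 CPM in GFP-positive cells (SD, n = 8 and n = 3). It was called higher, at a log2 fold change of 0.92 (SE 0.31, edgeR adjusted p = 0.0212), beside 57.9% of all rows called, 27.6% higher and 30.3% lower. The 2 groups overlap, and the call was lost with DESeq2 (adjusted p = 0.0592, while Rtl1 was called higher there), without GFP-positive library 1 and without library 2. Rian was between 243 and 494 CPM, with a median of 308 CPM, in colony lines and at 175, 176 and 398 CPM in GFP-positive cells (log2 fold change 0.68, SE 0.31, edgeR adjusted p = 0.0721). Rtl1 and Mirg had log2 fold changes of 0.78 and 0.55 (adjusted p = 0.0623 and 0.0709), Meg3 of 0.24 (adjusted p = 0.449) and Dlk1 of -0.64 (adjusted p = 0.285).

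These values depend on which GFP-positive libraries enter. All 8 colony lines were above GFP-positive libraries 1 and 2 in Meg3, Rian, Mirg and Dio3. In Rtl1 3 of the 8 were above both, and in Dlk1 2 were. How many of all rows separate in this way was not counted. All 8 lines were below library 3 in Meg3, and 5 of the 8 were below it in Rian and in Mirg. Without library 3, edgeR called 4 members higher in colony lines: Rian at a log2 fold change of 1.16, Mirg at 0.85, Meg3 at 0.64 and Dio3 at 1.03, beside 57.3% of all rows called. Within the first project the fit sets the 8 lines against library 3 alone, which is assumed to vary like the lines. There 0 were called higher and Dlk1 was called lower, at -1.72 (adjusted p = 0.0067), while Rian was at 0.04 and Meg3 at -0.32. All lines belong to the first project, so for GFP-positive libraries 1 and 2 the sequencing project and the group cannot be told apart.

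The lists around the cluster were read in the same comparison, where 57.9% of all rows were called, 27.6% higher and 30.3% lower. Of 19 imprinted rows from other clusters that were tested, 12 were lower in colony lines and 1 higher, with Ndn falling by 1.79, Peg10 falling by 2.01 and Plagl1 up by 3.52. Of 17 imprint and DNA methylation factors tested, 5 were higher and 7 lower, with Dnmt3a falling by 2.08, the Polycomb subunit Eed up by 1.20 and Uhrf1 up by 1.01. Of 8 Notch rows tested, 4 were lower and 1 higher, and Dll1 fell by 4.77. Of 15 flanking rows tested, 5 were lower and 1, the chaperone gene Hsp90aa1, was higher by 1.43, together 6 of 15. Of 6 thyroid hormone rows tested, 4 were lower and 0 higher. Without library 3, whose other imprinted rows summed to 3084 CPM against 1217 and 1395 CPM in libraries 1 and 2, 9 of the other imprinted rows were lower and 1 higher, 8 of the factors lower and 5 higher, 3 Notch rows lower and 1 higher, 4 flanking rows lower and 2 higher, and 4 thyroid rows lower and 0 higher. All rows called then made up 57.3%, 27.7% higher and 29.7% lower. Epiblast markers summed to between 1.97 and 4.04 CPM in colony lines and between 126 and 161 CPM in GFP-positive cells.

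The sorted lines were set against the same cells. Rian was at 295 CPM in each sorted line, against 175, 176 and 398 CPM in AICAR GFP-positive libraries 1, 2 and 3. Meg3 was at 184 and 223 CPM in sorted lines, against 185, 191 and 378 CPM. Of the 5 members tested, edgeR called 0, DESeq2 called 0 and 0 had an unadjusted p under 0.05, beside 36.7% of all rows called, 17.5% higher and 19.1% lower. Dio3, with 7 and 6 reads in sorted lines, did not pass the filter on low counts. The sign for Rian depended on the libraries. It was higher in sorted lines by 0.91 on the log2 scale without library 3 (edgeR adjusted p = 3.09e-05), where 3 members were called higher, beside 51.7% of all rows called. That p rests on 2 lines with nearly equal Rian levels and on libraries 1 and 2, nearly equal as well. Those libraries are of the second project and the lines of the first, so project and group cannot be told apart. Within the first project only library 3 remains to set against the 2 sorted lines, and the log2 fold changes were -0.22 for Rian and -0.67 for Meg3. These are given as values without a test, since the spread there comes from 2 lines whose Rian levels are nearly equal.

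Between colony lines and sorted lines no member passed edgeR's test. Meg3 averaged 264 ± 74.0 CPM in colony lines and 204 ± 27.4 CPM in sorted lines (SD, n = 8 and n = 2). Rian averaged 356 ± 117 CPM in colony lines, against 295 CPM in each sorted line. Of the 6 members edgeR called 0, as it did of all rows (0.0%), DESeq2 called 0, and Dlk1 alone had an unadjusted p under 0.05 (log2 fold change -0.91, SE 0.41, adjusted p = 0.536). Dlk1 had 4 to 11 reads in colony lines and 17 and 9 reads in sorted lines.

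Colony lines were also set against undifferentiated cells, which were kept in the same medium. Meg3 was between 192 and 364 CPM, with a median of 242 CPM, in colony lines and at 145 CPM in undifferentiated cells. The Rtl1 row was between 3.70 and 10.2 CPM, with a median of 4.38 CPM, in colony lines and at 2.06 CPM in undifferentiated cells. Rian was between 243 and 494 CPM in colony lines and at 235 CPM in undifferentiated cells. For these 3 genes and Dio3 every colony line was above the undifferentiated library. For Dlk1 and Mirg the lines lay on both sides of it. How many of all rows separate in this way was not counted. None passed the test: edgeR and DESeq2 each called 0 of the 6 members, beside 0.0325% of all rows with edgeR, 0.00812% higher and 0.0244% lower. An unadjusted p under 0.05 was found for Meg3 (log2 fold change 0.86, SE 0.37, adjusted p = 0.235) and Rtl1 (1.51, SE 0.66, adjusted p = 0.240). No line was near absence of the non-coding RNAs: the lowest levels among all 10 lines were 184 CPM for Meg3, 243 CPM for Rian and 14.9 CPM for Mirg.

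Line by line, the colony lines were far from uniform. Rian was at 492.8, 494.4 and 493.1 CPM in lines 3, 6 and 10, and at 322, 294, 265, 244 and 243 CPM in lines 5, 7, 9, 1 and 4. Meg3 was at 357, 322 and 364 CPM in lines 3, 6 and 10, and at 266, 219, 200, 194 and 192 CPM in lines 5, 7, 9, 1 and 4. In both genes lines 3, 6 and 10 were the highest and lines 1 and 4 the lowest. The Rtl1 row was at 10.2, 8.60 and 7.60 CPM in lines 3, 6 and 10, and between 3.70 and 4.39 CPM in the other 5. Mirg was at 25.8, 29.6 and 27.9 CPM in these lines, and between 14.9 and 20.0 CPM in the other 5. The lowest of these 3 lines stood above the highest of the other 5 by 1.53-fold for Rian, 1.73-fold for Rtl1, 1.29-fold for Mirg and 1.21-fold for Meg3. The sorted lines, at 295 CPM of Rian each, lay between colony lines 5 and 7.

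**Figure D3:**
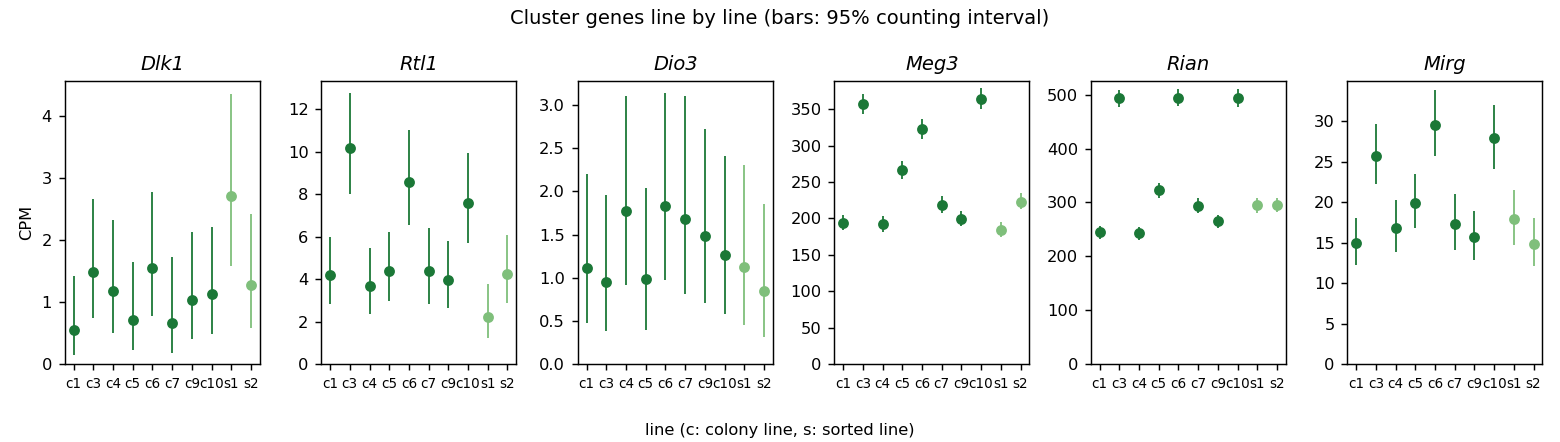
CPM of each gene in colony lines (c, dark green) and sorted lines (s, light green), with axes that start at 0 and bars of exact 95% Poisson intervals. Colony lines 3, 6 and 10 are the 3 highest of the 8 for Rtl1, Meg3, Rian and Mirg, and the intervals of Dlk1 and Dio3 overlap widely.

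Dlk1 and Dio3 did not share that order. Dlk1 had 4 to 11 reads per colony line, or between 0.559 and 1.55 CPM, and Dio3 7 to 13 reads, or between 0.950 and 1.83 CPM. Their variance over the 8 lines was 0.92 and 0.64 times what counting alone gives, so differences between lines were not detectable at this depth. The same ratio was 266 for Rian, 144 for Meg3, 11.4 for Mirg and 7.56 for Rtl1, against a median of 2.42 over 11808 rows with a mean of at least 1 CPM in the lines. At a given spread this ratio grows with the reads of a row, and the 8 lines held 19848 reads of Rian and 329 of Rtl1. On this ratio Rian stood at percentile 99.8 of these rows, Meg3 at 99.5, Mirg at 88.8 and Rtl1 at 82.8. By the SD of log2(CPM + 1), Rtl1 stood at percentile 97.5 of these rows, Rian at 96.7, Meg3 at 93.5 and Mirg at 91.8.

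The 4 members are thus among the more variable rows, and 4 of the 6 members, beside 2.89% of all rows, had lines 3, 6 and 10 as the 3 highest. Those 3 lines were picked out by these genes, so the count is a description. None of 15 flanking rows at that level shared the order, and the median flanking row differed 1.33-fold between its highest and lowest colony line. Among 17 imprint and DNA methylation factors 1, Dnmt3a, shared it. Of 18 imprinted rows of other clusters, which varied 2.55-fold at the median, 1 did, Mest. The flanking rows spanned between 1.11-fold for Hsp90aa1 and 7.08-fold for Begain, which averaged 1.32 CPM. The reverse order, added after seeing the data, had lines 3, 6 and 10 as the 3 lowest in 4.53% of all rows. The 4 members that picked out these lines could not show it, and Dlk1 and Dio3 did not. The reverse order held for 3 flanking rows, for 2 imprint factors (Zfp57 and Tet2) and for 2 other imprinted rows (Igf2r and the Igf2 row). Zfp57 was between 529 and 579 CPM in lines 3, 6 and 10 and between 586 and 769 CPM in the other 5. Tet2 was between 156 and 183 CPM in these 3 lines and between 185 and 267 CPM in the other 5. These genes were named after their values were seen. The summed mesenchyme markers were at 9.23, 3.24 and 3.80 CPM in lines 3, 6 and 10, and between 3.55 and 122 CPM in the other 5 lines. The naive markers summed to 1618, 1665 and 1733 CPM in lines 3, 6 and 10, and to between 1720 and 1812 CPM in the other 5. Reads in genes numbered 7370560, 7095012 and 7100685 in these lines, and between 5937370 and 7160446 in the other 5. The part of these differences in the members' order was not tested.

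**Figure D4:**
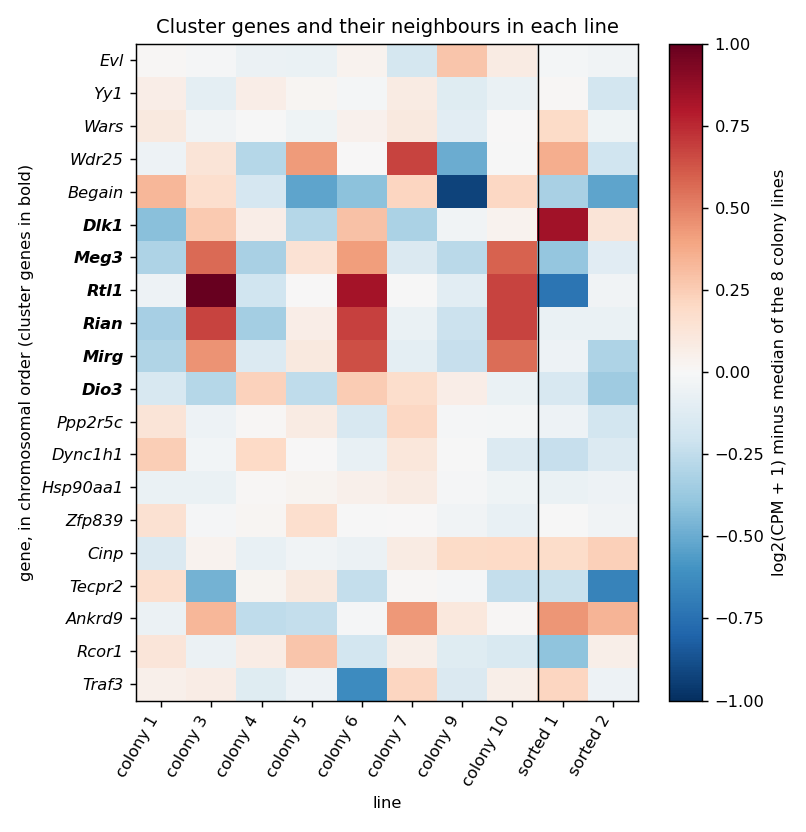
Log2(CPM + 1) of the 6 cluster genes and 14 neighbours in chromosomal order, in each line as the difference from the median of the 8 colony lines; the colour scale ends at 1 in either direction, and 1 value lies beyond it. Meg3, Rtl1, Rian and Mirg are red in colony lines 3, 6 and 10, and the neighbours do not show that row of colours.

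Pairs of members were correlated over the 8 colony lines on log2(CPM + 1), with an exact permutation test. Lines were read as separate clusters where the largest gap between neighbouring lines exceeded 0.5 of the range. That held for Rian (0.597) and Rtl1 (0.540), so no pooled value is given for their pairs. For Rtl1 the counting intervals across the gap overlapped, at 5.71 to 9.92 CPM in line 10 and 2.98 to 6.23 CPM in line 5. Of the 6 pairs left, Meg3 and Mirg had Pearson's r = 0.956 (exact p = 0.00176, adjusted p = 0.0106), and r = 0.954 without the 2 lines farthest from the median of Meg3. Spearman's rho for that pair was 0.857 (exact p = 0.0107, adjusted p = 0.0643). For Dlk1 and Mirg r was 0.711 (exact p = 0.0562, adjusted p = 0.169), with rho = 0.690 (exact p = 0.0694, adjusted p = 0.208) and r = 0.551 without 2 lines. The other 4 pairs, all with Dlk1 or Dio3, had r between -0.32 and 0.60 and adjusted p of 0.251 or more.

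The order of the 9 groups by mean CPM put day 15 first for Dlk1, Meg3 and Rian. Of the 8 steps down the order, the neighbouring groups were separate in 5 steps for Meg3, 3 for Rian, 2 for Mirg, 2 for Dlk1 and 0 for Rtl1 and Dio3. A step counts as separate where the span of the counting intervals of 1 group does not reach that of the next. For Dlk1, only the steps between day 15 (951 CPM) and day 2 (9.54 CPM) and between the whole AICAR culture (7.49 CPM) and the sorted lines (2.00 CPM) were separate. By mean, undifferentiated cells were last for Meg3, Rian, Mirg and Rtl1, and colony lines were last for Dlk1. Of these last steps, only that of Meg3 was separate. For Rian, AICAR GFP-positive libraries 1 and 2 lay below undifferentiated cells (175 and 176 against 235 CPM). The same held for Mirg (11.999 and 13.7 against 15.9 CPM). Library 3 lay above undifferentiated cells in both genes, at 398 and 22.8 CPM, so the last place there depended on library 3.

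The other rows with the most similar pattern differed between members. Over all 19 libraries, as a description on log2(CPM + 1), Dlk1 was most like Dcn (r = 0.980), Ptn (0.977), Trabd2b (0.973), Col6a2 (0.973) and Vcam1 (0.972). Dcn, a matrix proteoglycan, was at 519 CPM at day 15. Dlk1 and all of the rows listed for it were highest in that single library, which weighs heavily in these r values. Rian was most like AF357359 (r = 0.921), followed by Tom1l1 (0.883). AF357359 is a row of its own that RefSeq places within the cluster, and it had 413 reads in all, with reads in each of the 19 libraries. Mirg was most like Tom1l1 (0.852) and AF357359 (0.847), Meg3 most like Fzd2 (0.902), Rtl1 most like Neto2 (0.798) and Dio3 most like Ttc28 (0.914). Among the members themselves r was 0.973 for Rian and Mirg, 0.936 for Meg3 and Rian and 0.877 for Meg3 and Mirg. Dio3 had r between -0.20 and 0.22 with the other 5. All of these values share the 19 libraries and their depths. They also pool groups of unlike levels, so differences between groups enter each r.

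Over the 10 lines alone the nearest rows were others. Meg3 and Mirg each had BC025920 first (r = 0.972 and 0.897), a row that averaged only 1.10 CPM. Rtl1 had Nras first (0.881) and BC025920 next (0.880). Over the same lines r was 0.907 for Meg3 and Mirg and 0.919 for Rtl1 and Meg3. By the same gap rule the 10 lines were not separate for Rtl1 but were for Rian, so none is given for Rian. With 11820 rows compared over 10 points, high values turn up among many rows, and these are given as a description.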

How the data were processed

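The counts are whole numbers of reads per gene row, made by the authors with rpkmforgenes, per the file headers. The RPKM values were computed by the authors with 3' untranslated regions left out, per the file headers. TopHat2 2.0.14 and mm9 are named in the submitters' processing notes. Members, gene lists and comparisons were chosen with earlier results of these data known. The named genes are all members, up to 3 genes of a list by smallest adjusted p, and the most correlated rows. Groups were compared with edgeR 4.0.16 (quasi-likelihood, TMM, its expression filter, Benjamini-Hochberg adjusted p under 0.05) on the libraries compared, checked on simulated data. Single libraries were compared by log2 ratios with a prior count of 2. Intervals are exact 95% Poisson intervals; they and the floor of 3 reads per library cover counting error only. Alternatives used DESeq2 1.42.0, other scalings and filters, 1 joint fit and left-out libraries.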

Additional observations from a re-analysis of the deposited data

How the results depend on the processing

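Most calls depended on which AICAR GFP-positive libraries entered, and the cause was not tested. With single libraries left out, members called lower numbered 0 to 1 against undifferentiated cells, 0 to 5 against the day-2 sorted cells, 2 to 5 against day 15 and 0 to 5 against GFP-negative cells; colony lines against GFP-positive cells gave 0 to 4 higher and 0 to 1 lower, and sorted lines 0 to 3 higher. Over the same omissions the log2 fold changes against undifferentiated cells ran from -0.53 to 0.96 for Dlk1, -0.60 to 0.11 for Rian and -0.47 to 0.0083 for Mirg, with Rian at 0.09 without library 1. In colony lines Dlk1 ran from -1.11 to 0.33; in sorted lines Dlk1 ran from -0.37 to 1.25, Rtl1 from -0.58 to 0.34 and Meg3 from -0.31 to 0.28. Against the day-2 sorted cells, 3 members were lower with DESeq2 and 3 with no filter, and 5 were lower and 1 higher in 1 fit of all libraries; that fit called 1 lower against GFP-negative cells. In colony lines 2 were higher with no filter. Within the first project, colony lines had 0 higher and 1 lower, with Meg3 at -0.32, and sorted lines had 2 lower, a fit of 2 lines against 1 library given as values only, with Dlk1 at -0.81, Rian at -0.22 and Mirg at -0.26. GFP-positive and sorted lines share 2 replicate numbers; the deviations of same-numbered libraries had r = 0.0342 over 12589 genes, so the numbers are not taken as pairs. With the replicate block 3 members were higher in sorted lines (Meg3 at 0.27), and 3 without it in the same 4 libraries (Meg3 at 0.28), a fit chosen after seeing the data. With a pseudocount of 0.1 CPM the SD among colony lines was 0.49 for Dlk1 and 0.35 for Dio3, against 0.27 and 0.22 with 1 CPM. Over 10 lines r was -0.0713 for Dlk1 and Dio3 and 0.16 for Dio3 and Mirg, each of opposite sign to the 8 colony lines. The first project alone leaves 1 library against 1 in the other comparisons of GFP-positive cells, so it was not run there. Of these alternative fits, only those without GFP-positive library 3 have a share of all rows called, given in the results above. The other counts of members have no such share to be read against. The low counts of Dlk1 and Dio3 limit what could be detected in the lines.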
